A study of Mus musculus with 3 samples.

Results

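Pro-B cells in S phase, the stretch of the cell cycle in which DNA is copied, were described in single-cell RNA data from mouse bone marrow. The cells were selected on their own transcripts, counted as unique molecular identifiers (UMIs), each of which stands for 1 captured transcript. A pro-B cell was a member when 18 genes of DNA replication and nucleotide supply summed to 40 or more UMIs per 10000 UMIs of the cell (the S score) and 14 genes of G2 phase and mitosis summed to under 40 (the G2M score). The S score covers Mcm2 to Mcm7, Pcna, Tyms, Rrm2, Cdc6, Gins2, Slbp, Uhrf1, Ung, Ccne1, Ccne2, Dut and Fen1. The G2M score covers Mki67, Top2a, Ccnb1, Ccnb2, Cdk1, Cenpa, Cenpe, Cenpf, Birc5, Aurkb, Plk1, Ube2c, Tpx2 and Cdc20. The rule found 222 of 1106 pro-B cells (20.1%, 95% interval 17.7 to 22.6), in a series of 2633 kept cells. The other pro-B cells fell into a mitotic class with a G2M score of 40 or more and any S score (296 cells, 26.8%) and a low-cycle class with both scores under 40 (588 cells, 53.2%).

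The study sorted progenitors from C57BL/6J bone marrow, with no genetic change or treatment named for them, and profiled them on the 10x Chromium platform with 3-prime version 2 chemistry. Pro-B cells were gated as cKit+Sca1-Flt3-IL7Ra+B220+, common lymphoid progenitors (CLP) as cKit+Sca1+Flt3+/-IL7Ra+B220- and lymphoid-primed multipotent progenitors (LMPP) as cKit+Sca1+Flt3+IL7Ra-B220-. Each population is 1 library, and the sources used here give no age, sex or number of animals for a sort. Cultured iLS cells that the labels also describe were not analysed here. With no replicate library, differences were not tested and no p-values are reported. Ratios and shares carry exact 95% intervals, which cover counting error only and treat UMIs as independent. The 3 pro-B classes come from 1 library and share its run, while CLP and LMPP are other libraries, so that run and population cannot be told apart there.

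Pro-B cells are the stage of B lymphopoiesis at which the heavy chain locus is rearranged under the transcription factors Ebf1 and Pax5. Their expansion is driven by interleukin 7 and alternates with rearrangement, because the Rag1 and Rag2 recombinase acts mainly outside S phase, its Rag2 subunit being degraded when cells enter it. Entry into S phase is known to start with cyclin D and cyclin E kinases, which release E2F factors to induce the genes of origin licensing, nucleotide supply and replication forks. Replication-dependent histone genes are transcribed while DNA is copied, and genes of G2 phase and mitosis follow under Mybl2 and Foxm1.

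The label was checked against genes outside the rule and against markers of other cells. All 222 S phase cells had UMIs of Vpreb1 and Igll1, which encode the surrogate light chain, of Cd79a, a signalling subunit that the pre-B receptor needs, and of Ebf1. In the S phase cells 7 of 9 myeloid markers were at 0, Mpo, Elane and Csf1r among them, as were 4 of 4 megakaryocyte markers, 5 of 9 T and innate lymphoid markers and 5 of 6 dendritic markers. Of the dendritic list only Irf8, a factor that B cells also use, was detected, with 323 UMIs. A UMI of Mpo was found in 0 of 222 S phase cells, where the limit of 3 counts allows a share of cells with a UMI of up to 1.35%, while 29.3% of 948 CLP and 29.7% of 579 LMPP cells had one. The myeloid list summed to 67.0 CPM (UMIs per 1000000 UMIs of the class) in S phase, 80.9 in mitotic and 99.4 in low-cycle cells, the T and innate lymphoid list to 16.0, 22.4 and 26.8 CPM, and the erythroid list to 31.0, 22.4 and 34.2 CPM. Not all lists were mostly at 0: of 5 mature B markers 4 were detected in S phase cells, with 157 UMIs. That list summed to 78.5, 64.4 and 70.4 CPM in the same order. Of 8 erythroid markers 4 were at 0, of 5 stem markers 4 and of 3 stroma markers 2. The doublet caller Scrublet marked 0 of the 1106 pro-B cells, under the share at which it can be said to have worked, and no cell was left out as a doublet. Of the barcodes of S phase cells, 1 also occurred in the LMPP library and 0 in the CLP library. The cells also had higher levels of S phase genes that the rule did not use, described further on.

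A class cut from a score is a range and not a cell type. The S scores of the 222 cells ran from 40.1 to 116 with a median of 56.9, and their G2M scores from 0 to 39.8 with a median of 17.0. Just inside the limit 29 cells scored 40 to 44, and just outside it 34 cells with a low G2M score scored 36 to 40. On the G2M side 16 S phase cells scored 36 to 40, and 10 cells with an S score of 40 or more scored 40 to 44 and were therefore mitotic. In all, 62 cells of the mitotic class had an S score of 40 or more. When the UMIs of each cell were divided at random into 2 equal parts, 214 cells were S phase by the first part, and the second part put 166 of them (77.6%) in the same class, 32 (15%) in the low-cycle class and 16 (7.48%) in the mitotic class. DNA content was not measured, and the class names stand for transcript scores alone.

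The classes differed in depth, which bears on every comparison with the low-cycle class. The median S phase cell held 8443 UMIs and 2480.5 genes, against 8259 UMIs and 2537.5 genes in the mitotic class and 3266 UMIs and 1414.5 genes in the low-cycle class. Their middle 50% of cells lay between 6537.75 and 10242.5 UMIs in S phase cells and between 2541.75 and 4961.75 UMIs in low-cycle cells. The low-cycle class itself held 466 cells with an S score under 20, whose median was 2989.5 UMIs, and 122 cells with a score of 20 to 40, whose median was 9141.5 UMIs. Ratios over the low-cycle class are therefore given for all cells and again for cells of 6000 to 12000 UMIs, a range chosen after the data were seen, which held 144 S phase, 189 mitotic and 72 low-cycle cells with median depths of 8443, 8645 and 7637.5 UMIs. The 72 low-cycle cells of that range had a median S score of 31.2, close under the limit, against 59.2 in the 144 S phase cells.

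**Figure D1:**
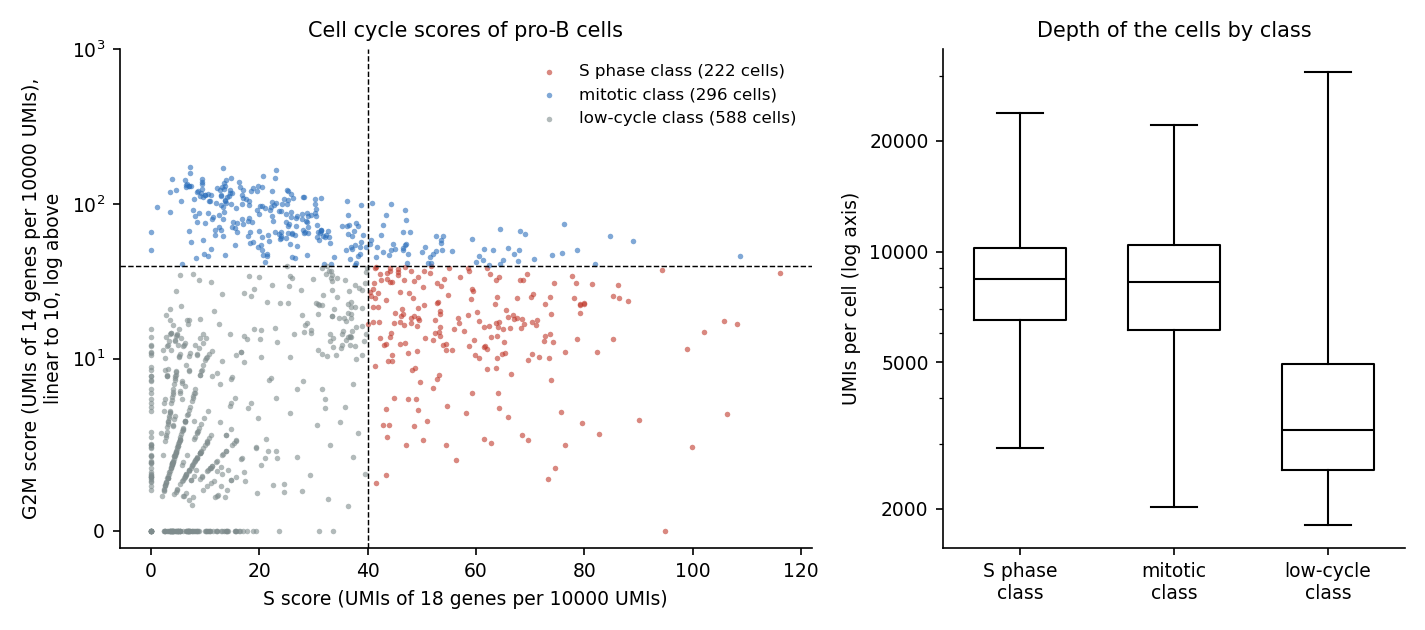
Left, each point is 1 pro-B cell placed by its S score (x axis) and its G2M score (y axis, linear to 10 and logarithmic above, both in UMIs per 10000 UMIs), with dashed lines at the limits of 40. Right, UMIs per cell by class on a log axis, with boxes over the middle 50% of cells and whiskers to the extremes; the S phase and mitotic classes have medians of 8443 and 8259 UMIs and the low-cycle class of 3266.

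Levels below are UMIs of a gene per 1000000 UMIs summed over a class (CPM), which is a share of the class's RNA. The genes that chose the cells are given as a description only. Rrm2, the small subunit of ribonucleotide reductase, had 564 CPM in S phase cells, 448 in mitotic and 109 in low-cycle cells. Pcna, the sliding clamp of the replication fork, had 731 CPM in S phase, 272 in mitotic and 192 in low-cycle cells. Tyms, thymidylate synthase, had 402, 288 and 87.2 CPM in the same order. Over cells, the median Rrm2 level per 10000 UMIs was 5.43 in S phase (middle 50% 3.01 to 7.43), 3.53 in mitotic (0.97 to 7.11) and 0 in low-cycle cells. The medians of Pcna were 6.48, 1.71 and 0, and those of Tyms 3.44, 2.28 and 0, so that Rrm2 and Tyms set S phase cells apart from low-cycle cells more than from mitotic cells.

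All 18 genes of the S score were at least 2-fold higher in S phase than in all low-cycle cells (median log2 1.61), and 9 of 18 were in cells of like depth (1.05). Over mitotic cells 11 of 18 were at least 2-fold higher. Across these genes the order of the classes varied. Ung, which removes uracil from DNA, had 147 CPM in S phase, 6.80 in mitotic and 34.5 in low-cycle cells, a log2 ratio of 4.43 over the mitotic class (3.73 to 5.23). Cdc6, which loads the helicase onto origins, had 41.5, 4.80 and 12.2 CPM, and Ccne2, a cyclin E, had 113, 18 and 20.9 CPM. The helicase subunit Mcm6 had 312 CPM in S phase, 77.7 in mitotic and 138 in low-cycle cells, and Mcm2 had 181, 46.8 and 59.6 CPM. All 5 had their lowest level in mitotic cells, though for Ccne2 the low-cycle level was little higher, whereas Rrm2 (log2 0.33 over mitotic) and Tyms (0.48) were nearer to their S phase level there. That order does not hold for all licensing genes: the origin and helicase genes outside the score summed to 1207 CPM in S phase, 877 in mitotic and 596 in low-cycle cells. Of the genes that kept cells out, Top2a, the topoisomerase that untangles copied DNA, had a median of 4.39 per 10000 UMIs over S phase cells, against 8.79 over mitotic and 0 over low-cycle cells. The medians of Ube2c, a ubiquitin-conjugating enzyme of mitotic exit, were 0.89, 12.1 and 0, and those of cyclin B1 (Ccnb1) were 0, 3.46 and 0.

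The promoters of these genes were searched for the letters of the E2F site, which the background names as the start of the programme. The windows are RefSeq's 300 bases from 250 before to 50 after a gene's start (build GRCm38.p6), and the letters searched were TTTCCCGC, TTTCGCGC, TTTGCCGC and TTTGGCGC on both strands, where a match on one strand can overlap one on the other. Such letters stood in 6 of the 15 matched S score genes (40%), in 7 of 17 matched origin genes (41.2%), 8 of 23 polymerase and clamp genes (34.8%), 6 of 20 chromatin assembly genes (30%) and 6 of 23 replication stress genes (26.1%). They stood in 2.61% of 27025 genes with a promoter in the table, and in 1 of 24 nucleotide synthesis genes (4.17%), 2 of 40 mitosis genes (5%), 0 of 19 B lineage regulators and 0 of 15 pre-B receptor and surface genes. Of the G2M score genes 1 of 12 (8.33%) had them, and of the V(D)J recombination genes 1 of 9 (11.1%). The CHR letters TTTGAA, on both strands, stood in 20.2% of all genes. They were found in 9 of 12 G2M score genes (75%) and 27 of 40 mitosis genes outside the rule (67.5%). The replication lists lay on both sides of the share of all genes. Above it were chromatin assembly (7 of 20, 35%) and origin genes (4 of 17, 23.5%). Below it were S score (2 of 15, 13.3%), polymerase and clamp (2 of 23, 8.70%), replication stress (2 of 23, 8.70%) and nucleotide synthesis genes (2 of 24, 8.33%). A match is a description of letters and not a bound site.

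The windows of 5 genes are printed 5-prime to 3-prime on the gene's strand, with the E2F letters in capitals, to show where the letters lie. They were chosen with the matches known, 4 with a match and Rrm2 without, and are no sample of the class. Ung and Fbxo5, which had some of the highest ratios, have none of these letters in their windows. Only the starts that the windows cover were searched, so letters at another start of a gene would be missed. Mcm6 lies at chr1:128359656-128359955 on the minus strand, with matches starting at -110, -106 (the overlapping one on the other strand) and -47 from the start. Hells, at chr19:38930740-38931039 on the plus strand, has its match at -62, and Cdca7, at chr2:72475969-72476268 on the plus strand, at -71. In Clspn, at chr4:126556730-126557029 on the plus strand, the match lies at 21 after the start, and Rrm2, at chr12:24708004-24708303 on the plus strand, has none of these letters in its window.
Mcm6: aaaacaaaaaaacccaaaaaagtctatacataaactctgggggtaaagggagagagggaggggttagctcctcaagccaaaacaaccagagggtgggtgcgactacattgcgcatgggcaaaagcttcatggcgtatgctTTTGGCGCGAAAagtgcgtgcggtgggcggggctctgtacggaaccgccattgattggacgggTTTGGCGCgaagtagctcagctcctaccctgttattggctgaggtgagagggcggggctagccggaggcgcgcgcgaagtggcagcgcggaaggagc
Hells: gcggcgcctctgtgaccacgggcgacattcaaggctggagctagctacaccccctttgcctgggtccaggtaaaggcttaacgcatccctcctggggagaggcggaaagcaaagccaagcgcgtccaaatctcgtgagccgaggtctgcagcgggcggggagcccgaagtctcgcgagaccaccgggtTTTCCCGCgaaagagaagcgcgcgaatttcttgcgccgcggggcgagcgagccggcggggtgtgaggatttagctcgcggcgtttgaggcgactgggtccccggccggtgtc
Cdca7: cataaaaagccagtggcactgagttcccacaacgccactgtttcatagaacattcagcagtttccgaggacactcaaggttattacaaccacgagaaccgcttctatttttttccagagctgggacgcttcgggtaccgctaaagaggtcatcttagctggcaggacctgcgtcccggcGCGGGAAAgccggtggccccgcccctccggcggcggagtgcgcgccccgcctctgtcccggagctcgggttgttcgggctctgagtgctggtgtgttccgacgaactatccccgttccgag
Clspn: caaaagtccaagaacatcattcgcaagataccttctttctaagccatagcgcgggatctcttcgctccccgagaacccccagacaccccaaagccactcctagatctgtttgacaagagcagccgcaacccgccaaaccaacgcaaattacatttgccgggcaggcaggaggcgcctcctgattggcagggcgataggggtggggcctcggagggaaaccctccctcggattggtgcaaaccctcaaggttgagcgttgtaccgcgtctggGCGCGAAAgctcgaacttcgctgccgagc
Rrm2: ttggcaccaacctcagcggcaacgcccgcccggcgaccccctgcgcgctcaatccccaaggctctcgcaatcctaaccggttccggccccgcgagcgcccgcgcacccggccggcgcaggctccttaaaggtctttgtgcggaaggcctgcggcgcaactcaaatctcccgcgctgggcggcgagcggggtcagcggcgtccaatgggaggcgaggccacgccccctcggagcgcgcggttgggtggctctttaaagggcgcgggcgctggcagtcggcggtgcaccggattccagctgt

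Replication genes that the rule did not use were also higher in S phase cells than in low-cycle cells. Over all genes with 10 or more UMIs in both classes together, 5.24% were higher by 2-fold or more and 12.3% lower by as much in S phase than in low-cycle cells, with a median log2 ratio of −0.14, and the counts of lists are read against these shares. Of 28 genes of the polymerases and clamp loading 19 were at least 2-fold higher and 0 lower (median log2 1.10), of 21 genes of origin licensing and the helicase 7 and 0 (0.85), and of 21 chromatin assembly genes 8 and 0 (0.72). Of 32 measured genes of replication stress and recombination 19 were higher and 0 lower (1.27). Nucleotide synthesis had 6 of 27 higher and 1 lower (0.62). In cells of 6000 to 12000 UMIs the medians of the 5 lists were 0.71, 0.72, 0.61, 1.04 and 0.56 in the order given, against 0.04 over all genes, with 8 of 28, 5 of 20, 3 of 21, 15 of 29 and 3 of 26 genes at least 2-fold higher and 0 lower in each, while 7.69% of all genes were higher.

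At the fork, Lig1, the ligase that joins the fragments of the lagging strand, had 389.9 CPM in S phase, 144 in mitotic and 117 in low-cycle cells. That is a log2 ratio of 1.74 over the low-cycle class (1.55 to 1.93), which was 1.02 (0.74 to 1.32) in cells of like depth, and of 1.44 (1.26 to 1.62) over the mitotic class. With each cell thinned to 2000 UMIs, 59.9% of 222 S phase cells had a Lig1 UMI, against 20.6% of 296 mitotic and 11.2% of 552 low-cycle cells. Without thinning the shares were 93.7%, 56.4% and 23.3%. Prim1, the primase that lays down primers, had 134 CPM in S phase, 68.8 in mitotic and 41.1 in low-cycle cells. Rpa2, a subunit of the complex that coats single strands, had 253, 90.5 and 112 CPM, and the clamp loader Rfc2 had 291, 151 and 136. The gene 2810417H13Rik, known as PCNA clamp associated factor and named here after its values were seen, had 1554 CPM in S phase, 1355 in mitotic and 460.2 in low-cycle cells (log2 1.76 over low-cycle, 1.22 at like depth). The levels of Pold4, a small subunit of polymerase delta, went the other way, with 109 CPM in S phase, 188 in mitotic and 192 in low-cycle cells (log2 −0.81 over low-cycle, −0.12 at like depth).

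For nucleotide supply, thymidine kinase (Tk1) had 195 CPM in S phase, 125 in mitotic and 63.5 in low-cycle cells (log2 1.62 over low-cycle, 1.37 at like depth). Rrm1, the large subunit of ribonucleotide reductase, had 162, 129.7 and 66.2 CPM, so that its level in mitotic cells was nearer that in S phase cells. Over the mitotic class nucleotide synthesis had the highest median of these 5 lists, 1.0 with 12 of 27 genes at least 2-fold higher and 0 lower. The folate enzymes Shmt1 (43.5, 6.80 and 23.7 CPM) and Mthfd1 (31.5, 8.81 and 15.7 CPM) led it, with log2 ratios of 2.68 (1.92 to 3.52) and 1.84 (1.12 to 2.61) over the mitotic class.

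Among chromatin genes, Hells, a remodeller needed for DNA methylation, had 207 CPM in S phase, 35.2 in mitotic and 102 in low-cycle cells. Cdca7, its partner, had 272, 66.8 and 139 CPM. Both were among the 10 genes highest over the mitotic class, with log2 ratios of 2.56 (2.22 to 2.91) and 2.03 (1.77 to 2.29). Their ratios over the low-cycle class, 1.02 and 0.97, were 0.26 (−0.07 to 0.61) and 0.31 (0.03 to 0.60) at like depth, so these 2 genes did not set S phase cells far apart from low-cycle cells of that depth. The histone chaperone subunit Chaf1b had 143 CPM in S phase, 33.2 in mitotic and 45.7 in low-cycle cells, and its ratio over the low-cycle class was 1.65, or 1.22 at like depth. Asf1b, another histone chaperone, had 343, 359.8 and 95.2 CPM, equal within its interval between S phase and mitotic cells (log2 −0.07, −0.21 to 0.08).

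Of the checkpoint and repair genes, claspin (Clspn), which carries the stalled-fork signal to Chek1, had 118 CPM in S phase, 58.0 in mitotic and 32.1 in low-cycle cells (log2 1.88 over low-cycle, 1.04 at like depth). Brca1 had 22.5, 15.2 and 4.53 CPM, from 45 UMIs in S phase cells. Among named genes outside the rule with 50 CPM, the highest ratio over the low-cycle class belonged to Fbxo5, an inhibitor of the anaphase-promoting complex, with 242 CPM in S phase, 276 in mitotic and 53 in low-cycle cells (log2 2.19, 1.93 to 2.46, and 1.49, 1.07 to 1.94, at like depth). It was followed by Tcf19 (2.11), Bok (2.08), the gamma-tubulin gene Tubg1 (2.03), the mitotic kinase gene Pbk (2.02), the condensin gene Ncapg2 (1.97), Mybl2 (1.95), E2f1 (1.94), the DNA glycosylase gene Neil3 (1.90) and the cohesin acetyltransferase gene Esco2 (1.88). All 10 stayed above 0 at like depth, between 0.91 for E2f1 and 2.08 for Pbk.

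**Figure D2:**
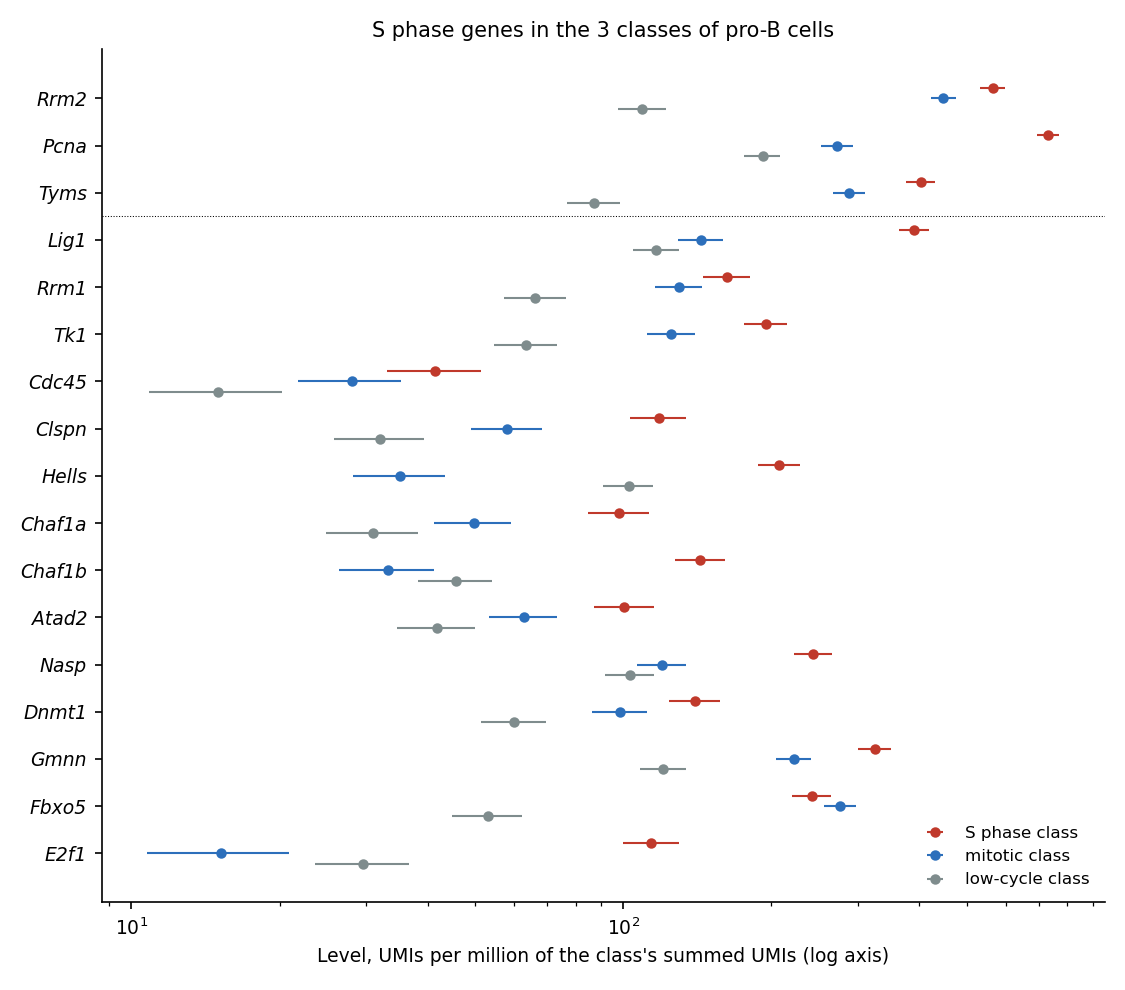
Levels of S phase genes (CPM, log axis) summed over the S phase, mitotic and low-cycle classes of pro-B cells, with exact 95% Poisson intervals as bars. The 3 genes above the dotted line belong to the rule; below it, most genes were highest in S phase cells, while Fbxo5 was higher in mitotic cells and E2f1 and Hells were lowest there.

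Of the 2817 genes that reached 50 CPM in S phase or low-cycle cells, 133 (4.72%) were 2-fold or more higher in S phase cells and 139 (4.93%) were lower by as much. In cells of like depth 80 of 2705 were higher and 13 lower. With median-of-ratios scaling, which moves every log2 ratio of this comparison by 0.14, the split was 186 higher and 97 lower. Of the 133 and 139 genes, 61 and 6 were again past the threshold in cells of like depth.

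Histone genes separated the S phase cells from low-cycle cells and also from one another. These genes are near-identical copies with few or no poly(A) tails, so reads may be split between copies and single genes are uncertain. Of 56 measured replication-dependent histone genes 40 were at least 2-fold higher and 0 lower than in low-cycle cells (median log2 1.30, and 0.99 at like depth), and over the mitotic class 0 of 62 were higher and 13 lower (median −0.68). Hist1h2ap had 10033 CPM in S phase, 15914 in mitotic and 2941 in low-cycle cells. Over S phase cells its level per 10000 UMIs had a median of 79.8 with a middle 50% from 10.8 to 168, a wide spread next to that of Igll1 (median 22.5, 18 to 29.9). The linker histone gene Hist1h1b had 130.0 CPM in S phase, 172 in mitotic and 42.2 in low-cycle cells. Of the histone variants, H2afz had 4601, 5334 and 2338 CPM and H2afx 631, 2300.3 and 355 CPM.

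That spread followed the G2M score within the class, although no histone gene is in either score. The S phase cells were divided into 50 with a G2M score under 10, 90 of 10 to 20 and 82 of 20 to 40, with median depths of 6495, 8994.5 and 8873 UMIs. Hist1h2ap had 1239.9 CPM in the lowest bin, 7769 in the middle and 16466 in the highest, a log2 ratio of 3.73 between the ends (3.59 to 3.87). All replication-dependent histones together had 2005, 9276 and 18726 CPM, 9.34-fold higher at the upper end. The 18 S score genes together had 5765, 5803 and 5556 CPM and the polymerase and clamp genes 3390, 3365 and 3332 CPM, nearly the same in each bin. Hist1h1b had 14.2, 130 and 182 CPM, from 5 UMIs in the lowest bin.

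Single genes of replication and the cell cycle were spread along the same axis in either direction. Ung had 264 CPM in the lowest G2M bin, 189 in the middle and 48.4 in the highest (log2 −2.45 between the ends, −3.03 to −1.89), and cyclin D2 (Ccnd2) had 179, 122 and 48.4 CPM (−1.89, −2.51 to −1.28). Mcm2 had 276, 175 and 145 CPM, Cdca7 401, 297 and 187 CPM, E2f1 168, 120.4 and 82.8 CPM, Cdc6 76.8, 41.7 and 25.5 CPM and Myc 48.3, 27.8 and 16.6 CPM. Rrm2, Tyms and Fbxo5 were higher in the upper bins, with 418, 538 and 659 CPM for Rrm2, 296, 355 and 502 CPM for Tyms and 117, 245 and 294 CPM for Fbxo5. Cyclin A2 (Ccna2), which partners Cdk2 during S phase, had 34.1, 139 and 275 CPM, and Mxd3, a Myc antagonist known to be expressed in S phase, had 14.2, 41.7 and 135 CPM. Over the whole S phase class, Ccna2 and Mxd3 were lower than in mitotic cells (log2 −1.51 and −1.33). Both were higher than in all low-cycle cells (1.09 and 1.68). Lig1, at 384, 402 and 379.7 CPM, and Ccne2, at 117, 112 and 113 CPM, were about level. Across all genes with 50 CPM in the higher end bin, 103 of 2769 were at least 2-fold higher and 54 lower in the highest than in the lowest G2M bin. Because the G2M score itself made the bins, its genes are left out of this account, and co-regulated genes are not independent of it.

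**Figure D3:**
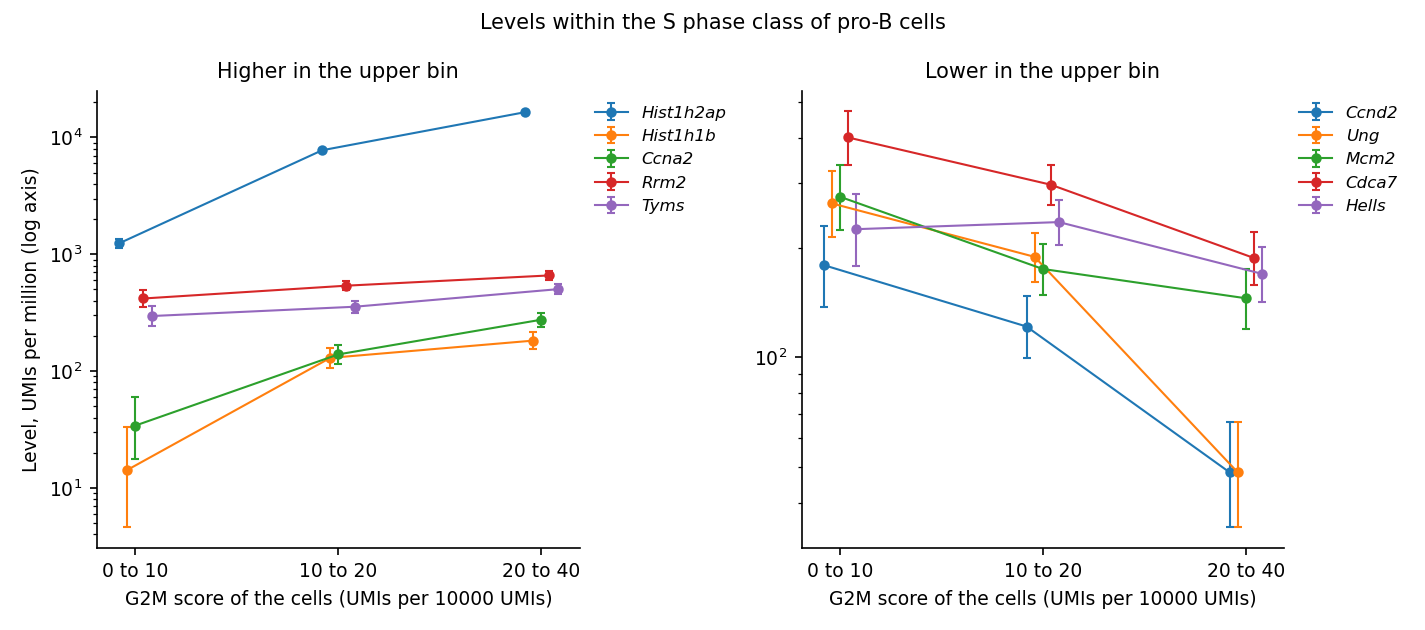
Levels (CPM, log axis) of 10 genes summed over S phase cells in 3 ranges of the G2M score (x axis, UMIs per 10000 UMIs; 50, 90 and 82 cells), with exact 95% Poisson intervals. Left, genes higher in the upper range, led by Hist1h2ap at 1239.9, 7769 and 16466; right, genes lower there, such as Ung at 264, 189 and 48.4.

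Whether single cells held early and late transcripts side by side was looked at in pairs of genes in S phase cells thinned to 2000 UMIs. Ung and Hist1h2ap were found together in 22.1% of 222 cells (16.8 to 28.1), where the product of their single shares gave 23.1%. E2f1 and Hist1h2ap were together in 13.5%, against a product of 14.2%, and Igll1 with Dntt, the transferase that adds bases at V(D)J junctions, in 82.0%, against 81.8%. Hist1h2ap had a UMI in 200 and Igll1 in 219 of the 222 cells, so that presence together is largely set by the other gene of a pair and could show little of any order between them. At 2000 UMIs a Ung UMI was found in 25.7% of S phase cells, against 1.01% of mitotic, 3.08% of low-cycle, 9.58% of CLP and 8.03% of LMPP cells.

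The regulators of the cycle varied by gene. Cyclin D3 (Ccnd3) had 1212 CPM in S phase, 843 in mitotic and 569 in low-cycle cells (log2 1.09 over low-cycle, 0.83 at like depth, and 0.52 over mitotic). After thinning, 87.4% of S phase, 68.2% of mitotic and 55.4% of low-cycle cells had a Ccnd3 UMI. The shares were 32.6% in CLP and 22.2% in LMPP cells, whose median unthinned depths were 6258.5 and 6789 UMIs. Ccnd2 had 103 CPM in S phase, 43.6 in mitotic and 184 in low-cycle cells, 2-fold or more above the mitotic class and not different from low-cycle cells at like depth beyond its interval (−0.12, −0.54 to 0.32). Cdk4, the kinase partner of D cyclins, had 652, 329.8 and 402 CPM, and Cdk2, the partner of cyclins E and A, had 91.0, 48.0 and 33.1 CPM. The phosphatase gene Cdc25b had 63.0 CPM in S phase, 231 in mitotic and 157 in low-cycle cells, and at like depth S phase and low-cycle cells had about the same level (log2 −0.02, −0.57 to 0.55).

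E2f1, the activator that is itself an E2F target, had 114 CPM in S phase, 15.2 in mitotic and 29.6 in low-cycle cells, the highest ratio over the mitotic class among named genes outside the rule with 50 CPM (log2 2.91, 2.41 to 3.44). The repressors E2f7 and E2f8, which shut E2F targets down later in S phase, were nearer to their mitotic level, with 27.5, 23.6 and 3.49 CPM for E2f7 and 68.0, 49.2 and 19.2 CPM for E2f8. Their log2 ratios were 2.98 (1.99 to 4.12) and 1.83 (1.36 to 2.31) over all low-cycle cells, with no like-depth ratio given here. Over the mitotic class the ratios of E2f7 and E2f8 were 0.22 (−0.34 to 0.77) and 0.47 (0.10 to 0.83). Mybl2, of the complex that turns on late genes, had 93.0, 46.0 and 24.1 CPM, while Foxm1, which acts with it, had 18, 46.4 and 10.5 CPM. Myc had 27.0 CPM in S phase, 10.4 in mitotic and 32.8 in low-cycle cells, and Mxd4, a Myc antagonist, 29.5, 35.2 and 164 CPM. Of 23 measured E2F, Myb and Myc factors 7 were at least 2-fold higher and 1 lower than in low-cycle cells (median 0.57), against 5.24% and 12.3% of all genes. At like depth 5 of 20 were higher and 0 lower (0.29), against 7.69% and 5.22% of all genes.

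Of 22 measured Cdk inhibitors and growth brakes 1 was at least 2-fold higher and 5 lower in S phase than in low-cycle cells, against 5.24% and 12.3% of all genes. The median of the list was −0.42, and −0.21 at like depth. The 1 higher was Cdkn1a (p21), with 99.0 CPM in S phase, 57.2 in mitotic and 35.2 in low-cycle cells (log2 1.49, and 0.82, 0.29 to 1.37, at like depth). Cdkn1b (p27), which is degraded at S phase entry as a protein, had 14.5, 38.8 and 50.6 CPM (−1.80, and −0.70, −1.65 to 0.27, at like depth), and the antiproliferative gene Btg2 53, 95.7 and 240.2 CPM (−2.18, and −0.41 at like depth). Cdkn2d (p19) and Cdkn2c (p18) were highest in mitotic cells, with 136, 441 and 85.1 CPM and 100, 211 and 52.3 CPM. Of the 9 measured p53 target genes, Cdkn1a was the 1 at least 2-fold higher, 1 was lower, and the median was 0.03.

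Mitosis genes outside the rule lay between the other classes. Over the low-cycle class 22 of 47 were at least 2-fold higher and 0 lower (median 0.98, and 0.72 at like depth), and over the mitotic class 0 were higher and 41 lower (median −1.63). In that comparison 4.7% of all genes with 10 UMIs were at least 2-fold higher and 8.75% lower. The spindle gene Nusap1 had 161 CPM in S phase, 498 in mitotic and 44.6 in low-cycle cells, and the condensin gene Smc4 had 368, 747 and 172 CPM. Nearest to the mitotic level were Fbxo5 (log2 −0.19 over mitotic) and the condensin gene Ncaph (−0.39), and farthest Hmmr, a spindle protein gene, with 14.5, 157 and 13.9 CPM (−3.44). The rule put no cell with a G2M score of 40 or more in the S phase class, so a lower level of genes that move with that score is partly built into this comparison.

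Against the mitotic class 63 of 2824 genes with 50 CPM (2.23%) were at least 2-fold higher and 151 (5.35%) lower. Scaling to the total without mitochondrial and ribosomal protein genes moved these ratios by 0.11 and gave 130 higher and 150 lower, and median-of-ratios scaling, with a shift of 0.12, gave 94 and 116. After E2f1 and Hells, the highest were Srm, spermidine synthase, with 110.5 CPM in S phase, 22.0 in mitotic and 119 in low-cycle cells (log2 2.33, 1.90 to 2.78), Zmynd19 (2.15), Chaf1b (2.11), Cdca7 (2.03), the DNA repair nuclease gene Apex1 (1.84), Dtl (1.75), which marks licensing factors for destruction, Nolc1 (1.67) and Snhg9 (1.53). Nolc1 and Srm belong to cell growth and not to replication, and all 18 nucleolar and ribosome assembly genes were above 0 over the mitotic class (median 0.66), 3 of them by 2-fold or more, where 95 of 101 ribosomal protein genes were above 0 too (median 0.29). Over the low-cycle class the nucleolar median was 0.08. The lowest ratios over mitotic cells were those of Pif1, a helicase gene (3.5 CPM against 58.4, log2 −4.06), Troap (−3.54), Hmmr (−3.44), Cdkn3 (−3.25), the tubulin gene Tuba1c (−3.23), Prr11 (−3.23), Psrc1 (−2.90), the importin gene Kpna2 (−2.77), Miip (−2.77) and Knstrn (−2.48).

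**Figure D4:**
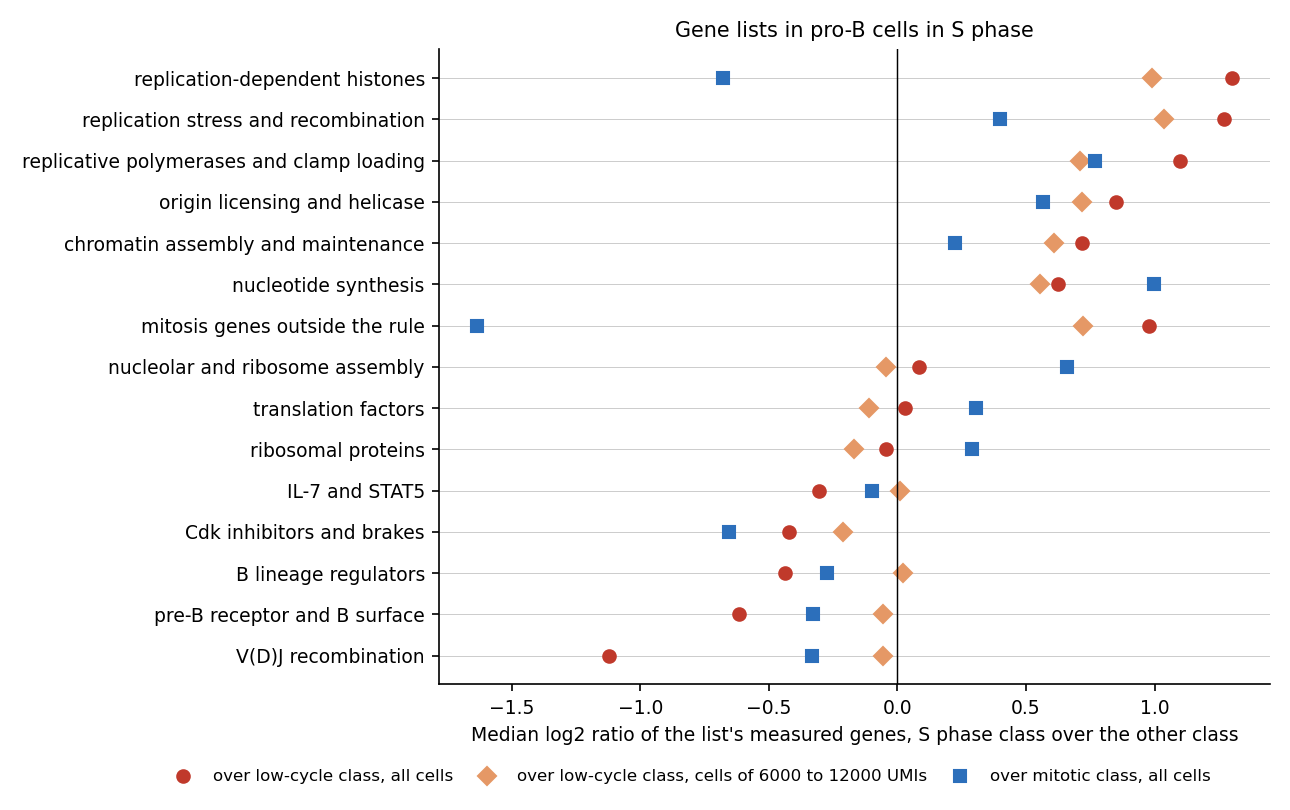
Median log2 ratio of the measured genes of 15 lists, S phase class over the low-cycle class for all cells (circles), over the low-cycle class in cells of 6000 to 12000 UMIs (diamonds) and over the mitotic class (squares). Replication lists lie above 0 throughout, histones and mitosis genes lie below 0 over the mitotic class, and B lineage lists lie below 0 over all low-cycle cells but within 0.06 of 0 at like depth.

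B lineage genes made up a smaller share of the RNA of S phase cells than of low-cycle cells, and a like share where depth was alike. Ebf1 had 2765 CPM in S phase, 3314 in mitotic and 4346 in low-cycle cells, a log2 ratio of −0.65 over the low-cycle class (−0.70 to −0.61) and of 0.08 (−0.01 to 0.16) in cells of 6000 to 12000 UMIs. Vpreb1 had 2630 CPM in S phase, 2649 in mitotic and 4375 in low-cycle cells (−0.73, and −0.06 at like depth), with the reservation that Vpreb2 is a near copy. Igll1 had 2328, 2496 and 3673 CPM (−0.66, and 0.00 at like depth), Vpreb3 2444, 3379 and 3846 CPM (−0.65, and 0.08) and Cd79a 1508, 1894 and 2052 CPM (−0.44, and 0.08). Pax5, which fixes B cell identity, had 101, 100.1 and 108 CPM, and the E protein gene Tcf3 443, 537 and 471 CPM. Of 23 B lineage regulators 0 were at least 2-fold higher and 4 lower than in low-cycle cells (median −0.44), where 12.3% of all genes were lower. Of 23 measured pre-B receptor and surface genes 0 were higher and 5 lower (−0.61). At like depth the medians were 0.02 and −0.06, with 1 of 21 regulators and 0 of 21 surface genes 2-fold lower, against 5.22% of all genes. Over the mitotic class the medians were −0.27 and −0.33, with 0 genes of either list 2-fold apart.

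Sox4, a factor of early B cell survival, kept a lower level at like depth, with 282 CPM in S phase, 419 in mitotic and 661 in low-cycle cells (log2 −1.23, and −0.42, −0.66 to −0.18). Id3, an inhibitor of E proteins, was somewhat higher, with 316, 265 and 227 CPM (0.48, and 0.33 at like depth). Of the interleukin 7 pathway, 0 of 14 measured genes were 2-fold apart from low-cycle cells (median −0.30, and 0.01 at like depth). The receptor gene Il7r had 72.5 CPM in S phase, 119.7 in mitotic and 112 in low-cycle cells (−0.63, and −0.09, −0.62 to 0.46, at like depth). Of the other genes behind the sort, Kit had 11.0 CPM in S phase, 4.00 in mitotic and 8.02 in low-cycle cells, and Ptprc, whose B220 form was stained, had 21.5, 36 and 39.4 CPM. Pim1, a kinase gene induced by this pathway, had 124, 121 and 134 CPM.

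The recombinase genes were lower in S phase cells than in low-cycle cells at either depth. Rag1 had 33.0 CPM in S phase, 40.8 in mitotic and 129 in low-cycle cells, a log2 ratio of −1.97 over the low-cycle class (−2.37 to −1.59) and of −1.12 (−1.79 to −0.46) at like depth. Rag2 had 36.5, 77.3 and 111 CPM (−1.60, −1.99 to −1.23, and −0.89, −1.53 to −0.24, at like depth), and was 2-fold or more lower than in mitotic cells too (−1.08, −1.49 to −0.69). In cells thinned to 2000 UMIs, Rag1 was found in 7.21% of S phase, 8.11% of mitotic and 26.4% of low-cycle cells, and Rag2 in 9.01%, 15.2% and 25.4%. Without thinning the shares of Rag1 were 21.6%, 23.6% and 44.4% and those of Rag2 26.1%, 42.6% and 38.4%, where the order of the mitotic and low-cycle classes goes against their CPM and their depths differ. In LMPP cells, whose median unthinned depth was 6789 UMIs, Rag1 was found in 0.349% and Rag2 in 1.05% of thinned cells. In CLP cells, with a median unthinned depth of 6258.5 UMIs, the thinned shares were 10.1% for Rag1 and 6.17% for Rag2. The transferase gene Dntt had 1299.8 CPM in S phase, 1286 in mitotic and 1451 in low-cycle cells (−0.16, and 0.21 at like depth). Of 10 V(D)J recombination genes 6 were 2-fold lower than in low-cycle cells (median −1.12), where 12.3% of all genes were lower. At like depth 1 of 7 was lower (−0.05), where 5.22% of all genes were. Xrcc6, an end-joining gene, had 147, 188 and 394 CPM and turned its direction, with a ratio of −1.42 over all low-cycle cells and of 0.16 (−0.23 to 0.56) at like depth.

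The 10 genes lowest in S phase relative to low-cycle cells were all nearer to 0 at like depth. Heyl, a transcriptional repressor of the Notch pathway, had 4.50 CPM in S phase, 7.61 in mitotic and 59.6 in low-cycle cells, from 9 UMIs in S phase cells. Its log2 ratio was −3.73 over all low-cycle cells and −0.79 (−2.77 to 1.26) at like depth. The others were Cyp4f18 (−2.94), the lymphotoxin gene Ltb (−2.76), Selm (−2.55), Mxd4 (−2.47), Btg2 (−2.18), Pqlc3 (−2.18), Pbxip1 (−1.97), Rag1 (−1.97) and Epb41l4b (−1.91). At like depth these 9 lay between −1.38 for Cyp4f18 and −0.36 for Pbxip1. Malat1, a nuclear RNA named here after its values were seen, was lower by 1.64 on the log2 scale over all low-cycle cells and by 0.15 at like depth. The part of depth in these ratios was not tested.

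**Figure D5:**
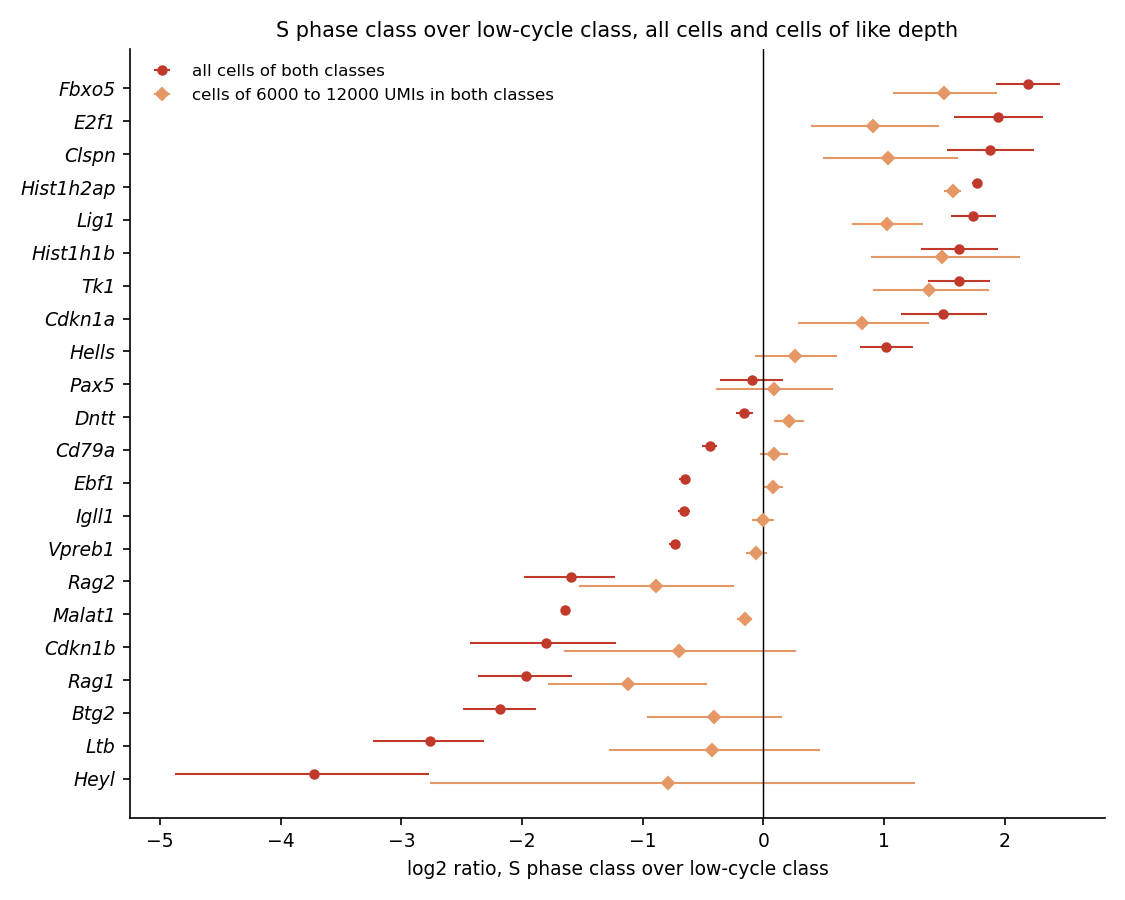
Log2 ratio of 22 genes, S phase class over low-cycle class (x axis), for all cells (circles) and for cells of 6000 to 12000 UMIs (diamonds), with exact 95% intervals. Lig1 and Fbxo5 stay above 0 at like depth, while the interval of Hells reaches below it. B lineage genes such as Ebf1 and Igll1 move to near 0, and Rag1 and Rag2 stay below it.

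Along the S score, genes took different courses, and some of them and the depth had a step at a score of 20. Pro-B cells with a G2M score under 40 were divided at S scores of 20, 40, 60 and 80 into 466, 122, 124, 80 and 18 cells, the last a thin bin, with median depths of 2989.5, 9141.5, 9420.0, 7779 and 5523 UMIs. Fbxo5 had 17.0, 97.8, 198, 285 and 510.3 CPM from the lowest to the highest score, and Ccnd3 406, 771, 1186, 1223 and 1457 CPM. Hells had 20.8, 204, 204, 217 and 195 CPM, level from a score of 20 on. Ccnd2 was highest just under the limit, with 141, 238, 124, 75.6 and 9.28 CPM, the last from the thin bin. Igll1 had 5023, 1994, 2101, 2705 and 2830 CPM and Ebf1 6087, 2180, 2390, 3262 and 4324 CPM, lowest in the deep cells with a score of 20 to 40 and higher on both sides of them. Within the S phase class these B lineage levels were thus highest where the S score was high and the median depth low. The nucleolar list had 2489, 5110, 4154, 3328 and 3192 CPM, highest in cells with a score of 20 to 40.

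Few cells of the other populations met the rule. It found 23 of 948 CLP (2.43%, 1.54 to 3.62) and 3 of 579 LMPP cells (0.518%, 0.107 to 1.51), against 20.1% of pro-B cells. Ribosomal protein UMIs, part of the score's denominator, were 40.3% in low-cycle CLP, 41.3% in low-cycle LMPP and 30.5% in low-cycle pro-B cells. Their part in these shares was not tested. With an S score of 30 or more, 52 CLP and 302 pro-B cells met the rule. The 23 CLP cells had S scores of 40.2 to 66.5 and a median depth of 7364 UMIs. Most of them differed from early B cells in their transcripts: 22 had UMIs of Cox6a2 (320 UMIs in all) and 19 of Siglech (71 UMIs), genes of plasmacytoid dendritic cells, where the 222 pro-B cells had 0 of either, and 20 had Tyrobp, an adaptor gene of innate cells (179 UMIs, against 1). Vpreb1 and Cd79a were each found in 1 of the 23 cells, Igll1 in 3 and Ebf1 in 6. The highest count in a CLP cell was 24 UMIs for Vpreb1, 17 for Igll1, 10 for Cd79a and 24 for Ebf1, against medians of 22, 20, 12 and 24.5 UMIs over the pro-B cells, so at least 1 of the 23 held B lineage transcripts at a pro-B level. Ly6d, which marks B-biased CLP and dendritic precursors, had UMIs in 20 of the 23 and in 114 of the 222 pro-B cells.

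Pro-B and CLP cells of the same score class therefore compare 2 lineages in 2 libraries. At 50 CPM, 309 of 3317 genes (9.32%) were at least 2-fold higher and 685 (20.7%) lower in the pro-B cells, and with median-of-ratios scaling, a shift of 0.19, 462 and 464. Over genes with 10 UMIs 9.34% were higher and 20.1% lower. In the CLP class 50 CPM is 7.88 UMIs, so single genes are imprecise. The 18 S score genes had a median log2 ratio of 0.10, with 0 genes 2-fold apart, and the rule sets a minimum for their sum. Replication genes outside the rule varied by list, with medians of 0.39 for nucleotide synthesis (6 of 27 higher and 1 lower), −0.05 for origin licensing (1 of 20 higher and 2 lower), 0.09 for polymerases and clamp loading (2 and 2 of 28), 0.29 for chromatin assembly (2 and 1 of 21) and −0.40 for replication stress and recombination (1 and 7 of 31). Lig1 had 389.9 CPM in pro-B and 438 in CLP S phase cells (log2 −0.17, −0.52 to 0.21), Hist1h2ap 10033 and 10243 CPM (−0.03, −0.10 to 0.04) and Ccnd3 1212 and 1389 CPM (−0.20, −0.40 to 0.01). Hells was lower in the pro-B cells, with 207 against 323 CPM (−0.64, −1.06 to −0.19), and E2f1 too, with 114 against 190.3 CPM (−0.74, −1.29 to −0.14). The lineage genes differed far more. Ebf1 had 2765 CPM in pro-B and 203 in CLP S phase cells (log2 3.77, 3.27 to 4.32) and Vpreb1 2630 against 152 CPM (4.11, 3.54 to 4.75), the CLP counts coming mostly from 1 cell. Cox6a2, at 0 in the pro-B cells, was at least 1353-fold lower, against a floor of 3 UMIs.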

How the data were processed

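Each deposited matrix holds unnormalized UMI counts (genes by barcodes) that came from Cell Ranger, per the submitters' processing notes. These notes name mm10 as the build, and the program's version, annotation and rule for calling cells were not given in the sources used here. Of 1123 pro-B barcodes, 1 with under 500 genes and 16 with over 10% mitochondrial UMIs were left out, which kept 1106 cells and 7367156 of 7410404 UMIs; 948 CLP and 579 LMPP cells were kept in the same way. Immunoglobulin chain genes were not analysed here.

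Scores and classes followed the rule in the opening. Counts were summed over the cells of a class, divided by the class total and given as CPM; 50 CPM is 100.0 UMIs and 3 UMIs are 1.50 CPM in S phase cells. Classes were compared by ratios of CPM with exact conditional 95% intervals (Clopper-Pearson on the counts), levels carry exact Poisson and shares exact binomial intervals, and a ratio against 0 UMIs used a floor of 3 UMIs. A class called higher or lower differed by 2-fold or more, at 50 CPM in the higher class for counts over genes and at 10 UMIs in both classes together for gene lists. The scripts were tested on simulated data. Alternatives were other score limits, scalings, minimums and folds, each cell weighing the same, classes called on one part of the UMIs and compared on the other, and, added after the data were seen, cells of 6000 to 12000 UMIs. Python 3.11.15, NumPy 2.4.6, SciPy 1.17.1, pandas 2.3.3, matplotlib 3.10.9 and scanpy 1.11.5 were used.

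The members and the gene lists were chosen with earlier results of these data known. Genes were named by rule: the 32 score genes, the 10 highest and 10 lowest ratios of each comparison at 50 CPM (without score, immunoglobulin, mitochondrial and ribosomal protein genes and unnamed models), all members of the 4 B lineage lists and the sort genes, and, for each remaining list, up to 8 genes with most UMIs in S phase cells. Brca1, Cdc25b, Cdkn1b, Csf1r, E2f7, Foxm1, Malat1, Mthfd1, Myc, Ncaph, Pold4, Prim1, Rrm1, Shmt1 and 2810417H13Rik fall outside it and were chosen after their values were seen.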

Additional observations from a re-analysis of the deposited data

How the results depend on the processing

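No paired analysis was possible because each population is 1 library. The share of S phase cells among pro-B cells, 20.1%, was 27.3% with an S score of 30 or more, 13.3% with 50 or more, 12.7% with a G2M score under 20 and 22.8% with mitochondrial and ribosomal protein genes left out of the denominator. Against low-cycle cells, the 133 genes 2-fold higher became 208 with an S score of 30, 80 in cells of 6000 to 12000 UMIs (chosen after seeing the data), 282 with each cell weighing the same, 236 at 20 CPM, 82 at 100 CPM and 341 at 1.5-fold. The 139 lower became 312 and 65 with S scores of 30 and 50, 13 at like depth, 347 with cells weighing the same, 215 without mitochondrial and ribosomal protein genes in the total, 360 at 20 CPM, 55 at 100 CPM and 361 at 1.5-fold. Against mitotic cells, the 63 higher became 130 without those genes in the total, 143 at 20 CPM, 34 at 100 CPM and 209 at 1.5-fold, and the 151 lower became 293, 89 and 360 in the last 3 settings. Against CLP S phase cells, the 309 higher became 465 with an S score of 50, 592 at 20 CPM, 154 at 100 CPM and 641 at 1.5-fold, and the 685 lower became 415 with an S score of 30, 1113 when classes were called on one part of the UMIs and compared on the other, 1363 at 20 CPM, 281 at 100 CPM and 1069 at 1.5-fold.

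Changes of sign were looked for in the gene lists and in part of the named genes, over the low-cycle and mitotic classes. Ratios over CLP cells were not included. Of the values looked at that were 2-fold or more apart, 2 changed sign, both over the low-cycle class at like depth. They were Xrcc6, at 0.16, and the MHC class II list, with a median of 0.33 against −1.06 over all cells. The 2 medians of that list cover different genes, 5 measured at like depth and 9 over all cells. The ratio of its summed UMIs was 0.31 at like depth and −0.39 over all cells. Smaller ratios changed sign there too, among them Ebf1 (0.08 at like depth, −0.65 over all cells), Foxo1 (0.38, −0.51), Erg (0.14, −0.85) and Cdt1 (−0.15, 0.85), and the immediate early (0.17, −0.50) and sort gene lists (−0.28, 0.26). The cause was not tested. Depth limits the comparison with low-cycle cells, since those deep enough to match S phase cells had S scores close under the limit, and that with CLP, where the class held 157662 UMIs.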

Other observations

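Genes of chromatin architecture and metabolism were also measured in S phase cells. The high mobility group genes, which bend DNA or bind nucleosomes, had a median log2 ratio of 0.72 over low-cycle cells and of 0.14 in cells of 6000 to 12000 UMIs, with 0 of 8 measured genes 2-fold apart in either. Hmgb2 had 3278 CPM in S phase, 5833 in mitotic and 1814 in low-cycle cells, and was 0.11 higher on the log2 scale at like depth (0.03 to 0.20). Hmgn1 differed from it in being highest in S phase, with 564 CPM in S phase, 339.8 in mitotic and 350.0 in low-cycle cells. Lactate dehydrogenase (Ldha) had 524 CPM in S phase, 275 in mitotic and 499 in low-cycle cells (log2 0.93 over mitotic, 0.79 to 1.07), within a glycolysis list whose median was 0.34 over the mitotic class and 0.06 over the low-cycle class. The mitochondrial chaperone genes Hspe1 (586, 318 and 652 CPM) and Hspd1 (219, 114 and 186 CPM) showed the same order of S phase above mitotic cells, with log2 ratios of 0.88 (0.75 to 1.02) and 0.94 (0.73 to 1.16), as did the cytosolic chaperone gene Hsp90ab1 (1775, 1170 and 1595 CPM). Nuclear genes of oxidative phosphorylation had medians within 0.10 of 0 in both comparisons, with 0 of 90 genes 2-fold apart. Of the MHC class II list, Cd74 had 2.0 CPM in S phase, from 4 UMIs, 1.20 in mitotic and 15.7 in low-cycle cells, while H2-Ab1 had 140.0, 151 and 88.9 CPM.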
